A study of Schizosaccharomyces pombe with 28 samples.

Results

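The gene arz1 (systematic id SPCC1494.03) is 1 of 2899 genes of the fission yeast Schizosaccharomyces pombe that had a probe set on these arrays, and it had 1 probe set. It was found by its symbol and gene ID in the array's gene table, and it was chosen because earlier results from the same arrays showed the same rise in arz1 on zfs1 deletion in every project, with and without cbf12. Its changes on zfs1 deletion are therefore described here and not tested.

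The study measured polyA RNA from strains grown in rich medium without treatment, on 28 arrays from 3 projects. The groups were a zfs1 null mutant (3 arrays) and wild type, WT (3 arrays), in project 488, a zfs1 null mutant (5 arrays) and WT (5 arrays) in project 529, and a zfs1cbf12 double null mutant, a zfs1 null mutant, a cbf12 null mutant and WT (3 arrays each) in project 582. The sources used here do not give the mating type or marker genes of the strains, nor whether each null mutant was a single isolate. The replicates are called biological by the submitters, but separate cultures are not stated, so that the p-values measure the spread between these samples.

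Zfs1 is the fission yeast member of the tristetraprolin family, zinc finger proteins that bind AU-rich elements in the 3′ ends of mRNAs and promote the shortening of the polyA tail and decay of the mRNA. The arz1 mRNA is known as a target of Zfs1, and its product is an armadillo repeat protein. Cbf12 belongs to the CSL family of DNA-binding proteins and acts in cell adhesion. The arrays measured RNA levels and not decay rates, and in RNA from whole cultures more expressing cells and more RNA per cell cannot be told apart.

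The deleted genes were near or below background on the arrays that lack them. The background of an array was taken as the percentile 95 of its probe sets for another species, which lay between 3.65 and 5.44 signal units. The zfs1 signal lay between 0.0618 and 7.70 on the 14 arrays of zfs1 and double null mutants, and between 389 and 630 on the 14 arrays of WT and cbf12 null mutants. The cbf12 signal was at most 0.670 on the 6 arrays lacking cbf12. The arz1 signal was far above background on every array, with a lowest value of 347.

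In project 488 the arz1 signal was 1910, 1754 and 1478 in the zfs1 null mutant, against 406, 467 and 558 in WT. In project 529 it was 1440, 1427, 1415, 1396 and 1404 in the zfs1 null mutant, against 440, 458, 434, 407 and 410 in WT. The values of the mutant lay above those of WT without overlap in both projects, as they did for 19.6 percent of all genes in project 488 and 18.1 percent in project 529, and the replicates lay much closer together in project 529 than in project 488.

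In project 582 the zfs1 null mutant had 1283, 1402 and 1312 signal units, against 369, 365 and 390 in WT. The double null mutant had 1251, 1276 and 1322 signal units, against 347, 438 and 363 in the cbf12 null mutant. Neither pair overlapped, as was so, in the same direction, for 16.9 percent of all genes in the first pair and 25.2 percent in the second. The arrays thus fell into a high set, in which zfs1 was deleted, and a low set, in which it was present, whether or not cbf12 was there. Over all projects the 14 arrays without zfs1 ranged from 1251 to 1910 with a median of 1403, and the 14 arrays with it ranged from 347 to 558 with a median of 408.

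**Figure D1:**
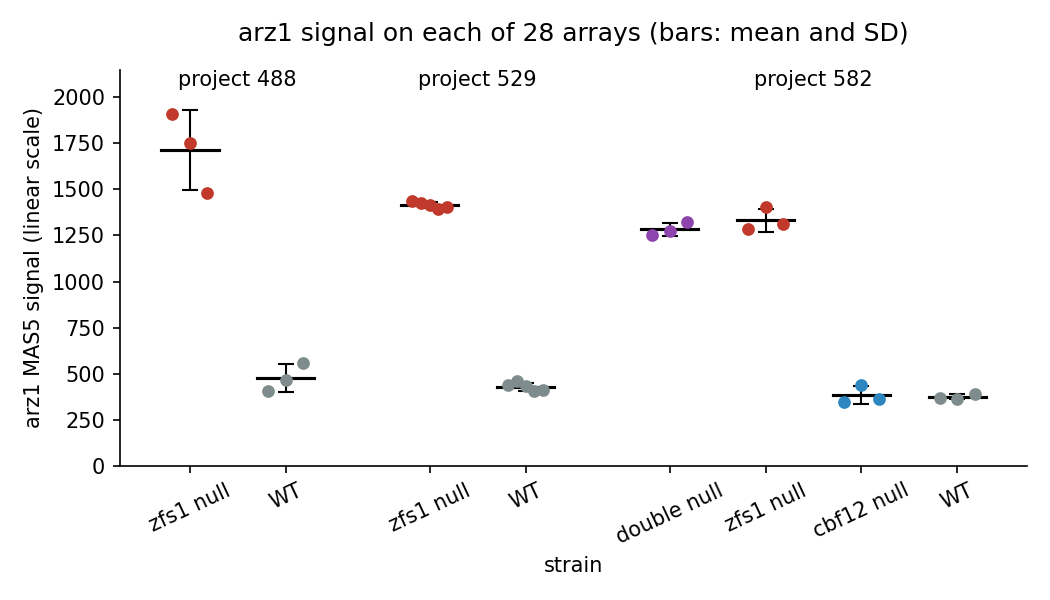
MAS5 signal of arz1 (vertical axis, linear scale) on each array, by strain and project. Points are arrays, horizontal bars are group means and whiskers are SD. The arrays with zfs1 deleted lie between 1251 and 1910, all above the arrays with zfs1, which lie between 347 and 558.

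The size of the arz1 rise was similar in the separate projects on the deposited scale. In project 488 it averaged 1714 ± 219 in the zfs1 null mutant and 477 ± 76.4 in WT (SD, n = 3 each), a 3.60-fold difference (log2 1.85 ± 0.12 SE, 95% confidence interval of the fold 3.00 to 4.33). In project 529 it averaged 1416 ± 17.7 in the mutant and 430 ± 21.5 in WT (n = 5 each), a 3.30-fold difference (log2 1.72 ± 0.04, 3.09 to 3.52). In project 582 it averaged 1332 ± 62.4 in the mutant and 374 ± 13.5 in WT (n = 3 each), a 3.56-fold difference (log2 1.83 ± 0.09, 3.10 to 4.08).

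The fit of all 22 zfs1 null and WT arrays, with a term for project, gave a 3.45-fold difference (log2 1.79 ± 0.05 SE, 3.22 to 3.69). Under quantile normalization, which forces the same distribution of signals on every array, the log2 difference was 1.92 in project 488, 1.55 in project 529 and 2.02 in project 582. The moderated F for a difference of the rise between projects was 0.820 on the deposited scale, given without a test, where 19.7 percent of the genes were called, and 8.32 under quantile normalization. The likeness of the projects thus depended in part on the scaling, while the direction was the same under each scaling tried.

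Genes that differed between zfs1 null mutants and WT were common, which sets the scale for arz1. At a Benjamini-Hochberg adjusted p below 0.05 in limma, 23.4 percent of the 2899 genes were called higher over the 3 projects, 9.87 percent in project 488, 25.7 percent in project 529, 4.14 percent in project 582, and 18.8 percent in the double null mutant against the cbf12 null mutant. The direction of the calls depended on the scaling in project 529, where 746 genes were called higher and 477 lower as deposited, against 491 higher and 739 lower with the array medians set equal and 566 higher and 530 lower under quantile normalization. By size, arz1 ranked second among the rises over the 3 projects, after pfl8, a flocculin-like surface glycoprotein, with the 2 values nearly equal at log2 1.79 each. It also ranked second to pfl8 in projects 488 and 529 and first in project 582 and in cells lacking Cbf12. The next rise below arz1 and pfl8 was that of cbf12 itself in projects 488 (1.27), 529 (1.16) and 582 (1.33).

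Only arz1 rose at least 2-fold in each of the 4 comparisons of zfs1-deleted with zfs1-carrying strains, 0.0345 percent of the genes tested. The groups lacked overlap, in the direction of a rise, in all 4 comparisons for 92 genes, 3.17 percent. The signal on every array lacking zfs1 was above that on every array carrying it for 18 genes, 0.621 percent. For arz1 the lowest signal without zfs1 was 2.24-fold above the highest signal with it. The corresponding ratio was 1.20 for mus81, a structure-specific endonuclease, 1.15 for pcm1, 1.13 for gaa1, of the enzyme that attaches GPI anchors, and lower still for the others. These counts describe the values on which arz1 was chosen and are no support for it.

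**Figure D2:**
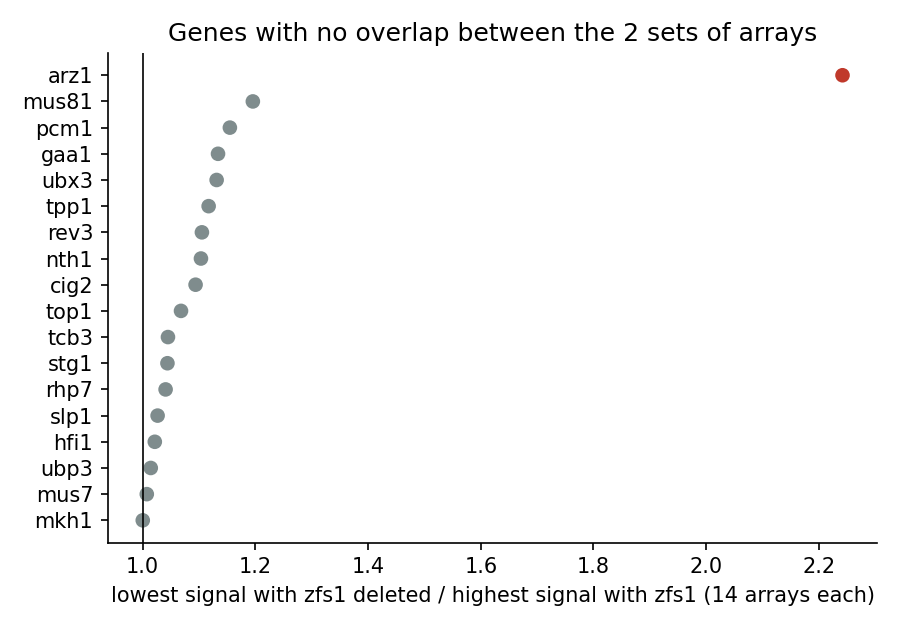
The 18 genes whose signal was higher on each of the 14 arrays lacking zfs1 than on any of the 14 arrays carrying it. The horizontal axis gives the lowest signal without zfs1 divided by the highest signal with it, which is 2.24 for arz1 and at most 1.20 for the others.

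The change of arz1 on cbf12 deletion was not itself a ground for its choice and was tested. However, arz1 was chosen for the same rise with and without cbf12. That choice keeps its changes in both cbf12 comparisons close to each other in advance, so that the tests are not independent of it. With Zfs1 present, arz1 averaged 383 ± 48.7 in the cbf12 null mutant and 374 ± 13.5 in WT (SD, n = 3 each). The groups overlapped, and the difference was within the replicate spread (log2 0.02 ± 0.09 SE, limma adjusted p = 0.861). Its 95% confidence interval ran from 0.886-fold to 1.17-fold. In this comparison 28.1 percent of the genes were called, 266 higher and 549 lower, against 434 higher and 272 lower with the array medians set equal and 352 higher and 390 lower under quantile normalization.

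Without Zfs1, arz1 averaged 1283 ± 36.2 in the double null mutant and 1332 ± 62.4 in the zfs1 null mutant (SD, n = 3 each). Again the groups overlapped and the difference did not pass the test (log2 -0.05 ± 0.09 SE, limma adjusted p = 0.724), with an interval from 0.839-fold to 1.11-fold, while 9.00 percent of the genes were called. These were 94 higher and 167 lower, against 136 higher and 108 lower with medians set equal and 107 higher and 90 lower under quantile normalization. Differences within these intervals could not be resolved.

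The rise on zfs1 deletion was 3.37-fold in the double null mutant against the cbf12 null mutant (log2 1.75 ± 0.09 SE), where 33.8 percent of the genes were called in either direction. The double null mutant was 3.43-fold above WT (log2 1.78 ± 0.09), where 35.1 percent of the genes were called, 448 higher and 570 lower, against 659 higher and 383 lower with medians set equal. The interaction, the log2 rise without Cbf12 minus that with it, was -0.08 ± 0.13 SE, with a 95% interval from -0.36 to 0.20, and 9.76 percent of the genes were called. For comparison, the log2 change of pfl8 on zfs1 deletion was -0.69 without Cbf12 and 1.38 with it.

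The pfl8 signal was 146, 209 and 247 in the double null mutant, against 325, 305 and 317 in the cbf12 null mutant. It was 784, 801 and 713 in the zfs1 null mutant of the same project, against 267, 286 and 334 in WT. The high pfl8 signal was thus seen in the strain that lacked zfs1 and kept cbf12, whereas arz1 was high in both strains lacking zfs1.

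**Figure D3:**
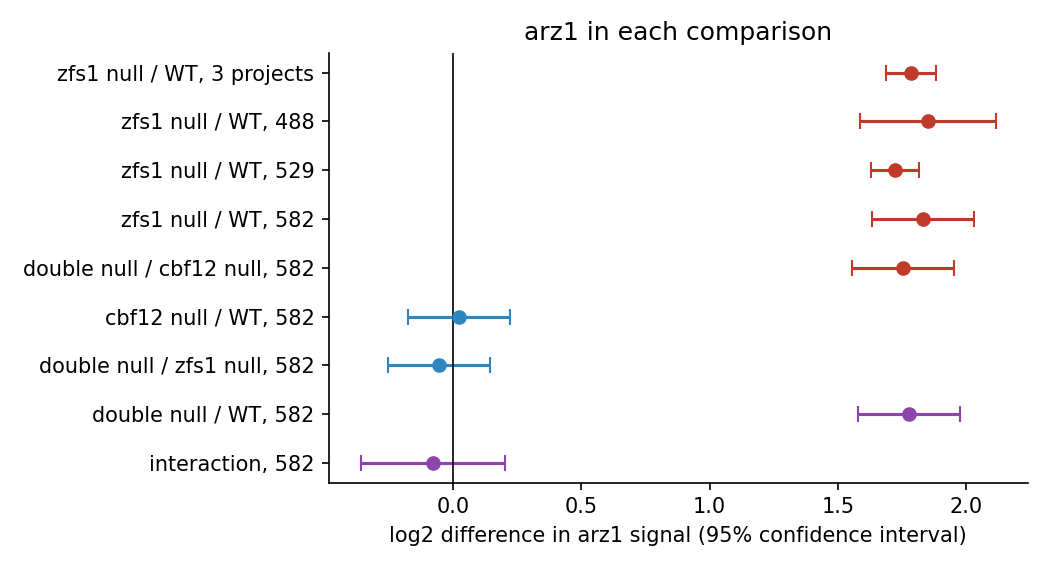
Log2 difference in arz1 signal (horizontal axis) with its 95% confidence interval in each comparison, the first-named strain over the second. The zfs1 comparisons lie between 1.72 and 1.85, and the cbf12 comparisons, at 0.02 and -0.05, have intervals that include 0.

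In the order of the 8 group means, arz1 was lowest in WT of project 582 (374), followed by the cbf12 null mutant (383), WT of project 529 (430) and WT of project 488 (477). Each of these groups overlapped its neighbour in the order. Then came the double null mutant (1283) and the zfs1 null mutants of projects 582 (1332) and 529 (1416), which likewise overlapped their neighbours, and the zfs1 null mutant of project 488 (1714). The step from WT of project 488 to the double null mutant was 2.71-fold with no overlap. The zfs1 null mutant of project 488 lay above that of project 529 without overlap, by a log2 difference of 0.27, against a pooled replicate SD of 0.11.

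The projects ranked alike in both strains, with project 488 highest and project 582 lowest in the zfs1 null mutants and in WT. Such a shared order follows in large part from the choice of arz1 for the same rise in every project. The level in WT was not itself a ground for the choice of arz1, though it is the reference of each rise used there. It differed between projects (limma moderated F = 5.54, adjusted p = 0.0208), as it did for 80.0 percent of the genes. Of the 3 pairs, project 488 was above project 582 by a log2 difference of 0.34 ± 0.10 SE (limma adjusted p = 0.0134), in a pair where 47.3 percent of genes were called. The other pairs did not pass, with log2 0.14 ± 0.09 for project 488 over 529 (adjusted p = 0.205, 55.2 percent called) and 0.20 ± 0.09 for project 529 over 582 (adjusted p = 0.0655, 67.4 percent called).

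The difference in WT level between projects no longer passed without WT replicate 3 of project 488 (adjusted p = 0.0511) or without WT replicate 2 of project 582 (adjusted p = 0.0653). Culture, labelling and array handling of a project cannot be told apart.

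The spread of arz1 between replicates differed between groups. On the log2 scale its SD was 0.19 in the zfs1 null mutant and 0.23 in WT of project 488, 0.02 and 0.07 in the same strains of project 529, and 0.04 in the double null, 0.07 in the zfs1 null, 0.18 in the cbf12 null and 0.05 in WT of project 582. The median SD over all genes lay between 0.07 and 0.14 in these groups. In WT of project 488 the SD of arz1 exceeded that of 98.0 percent of the genes, and in the zfs1 null mutant of project 529 that of 1.24 percent. The precision of the fold in project 488 is accordingly the lowest of the 3 projects.

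**Figure D4:**
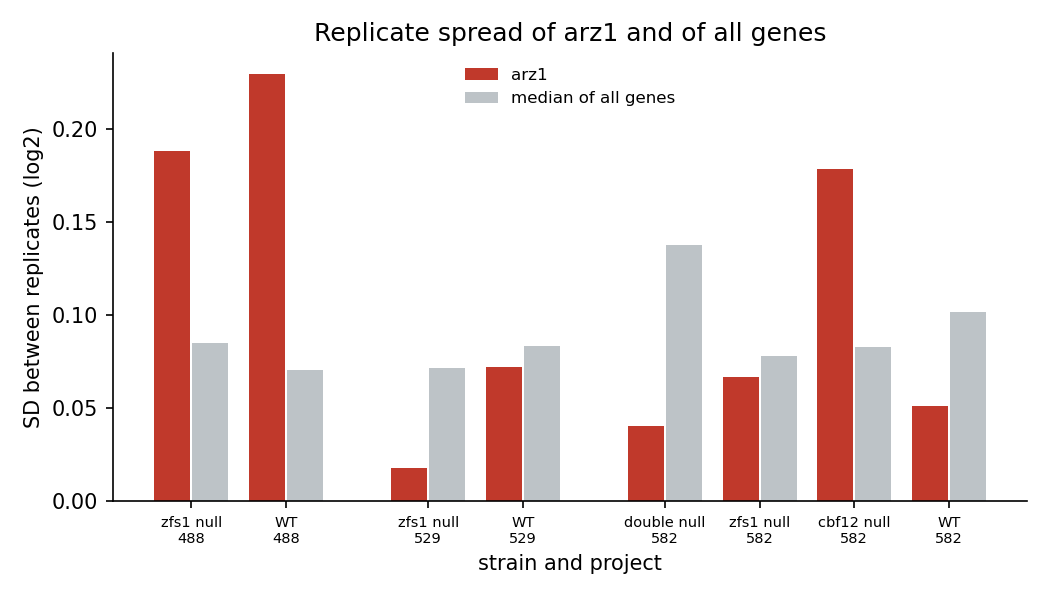
SD between replicates on the log2 scale (vertical axis) for arz1 and its median over all genes, by strain and project. arz1 varied more than the median gene in project 488 and in the cbf12 null mutant, and less in the other groups.

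Genes with the most similar pattern were found by the Pearson correlation of log2 signals with arz1 over the 28 arrays, each array taken relative to the mean of its project's WT arrays. The arrays share strains and projects, so that the correlations are descriptions. The 8 highest were for3, a formin that builds actin cables (r = 0.947), tcb3, a tricalbin (0.945), ubx3, a cofactor of the Cdc48 ATPase (0.942), the oxidation resistance gene oxr1 (0.938), the Mediator subunit gene rox3 (0.929), nth1, a DNA repair glycosylase (0.926), mkh1, the kinase at the top of the cell integrity MAP kinase cascade (0.920), and git11, the gamma subunit of a G protein (0.919). In all 17 of 2897 genes had an r above 0.9, and the median r was 0.09.

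These genes rose on zfs1 deletion by less than arz1 did. That they rose follows in large part from their choice by correlation with arz1, and is no separate result. Over the 3 projects their log2 differences between zfs1 null mutants and WT were 0.64 for for3, 0.54 for tcb3, 0.56 for ubx3, 0.98 for oxr1, 0.48 for rox3, 0.56 for nth1, 0.69 for mkh1 and 0.70 for git11, against 1.79 for arz1. Of the 8, only mkh1 passed for a rise that differed without and with Cbf12 (interaction -0.47, limma adjusted p = 0.0255). Over all genes 9.76 percent were called for this interaction. The 8 were picked on arrays that include the double null mutant, so that this count is not independent of their choice. The interaction was -0.44 for oxr1 (adjusted p = 0.139) and 0.43 for nth1 (adjusted p = 0.0547). Once group means were removed, the correlation with arz1 was 0.03 for for3, 0.23 for tcb3 and 0.37 for git11, so that the likeness lay in the differences between strains. The names depend on the measure. By Spearman's rank correlation none of the 8 was among the 8 highest, and without centring on WT 1 was.

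The tcb3 signal, for example, was 1491, 1670 and 1481 in the zfs1 null mutant of project 488, against 1154, 1189 and 1241 in WT. In project 582 it was 1724, 1737 and 1654 in the double null mutant, against 1126, 1120 and 1120 in the cbf12 null mutant. These groups did not overlap. A rise without overlap was found for 19.6 percent of all genes in the first pair and 25.2 percent in the second. Since tcb3 was picked for its correlation with arz1, these values are a description only.

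By distance, which also weighs the size of the change, the nearest were oxr1 (3.41), the cyclin gene psl1 (3.64) and rev3, which encodes a translesion DNA polymerase (3.70). Distance here is the root of the summed squared log2 differences over 28 arrays, and a gene level with its WT mean on every array would lie at 6.70. The oxr1 signal was 1725, 1657 and 1421 in the zfs1 null mutant of project 488, against 818, 773 and 860 in WT. On zfs1 deletion in project 582, oxr1 had a log2 difference of 0.51 without Cbf12 and 0.95 with it.

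The most opposite patterns were those of gal10, a galactose metabolism enzyme (r = -0.942), rec12, which makes the DNA breaks of meiotic recombination (-0.937), mug42, a meiotically upregulated gene (-0.937), and the meiotic septin gene spn7 (-0.927). Their log2 differences between zfs1 null mutants and WT over the 3 projects were -1.14 for gal10, -0.58 for rec12, -1.25 for mug42 and -0.70 for spn7. These falls likewise follow in large part from the choice by correlation. The zfs1 signal itself, which is lost by design in 14 of the arrays, had an r of -0.925.

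**Figure D5:**
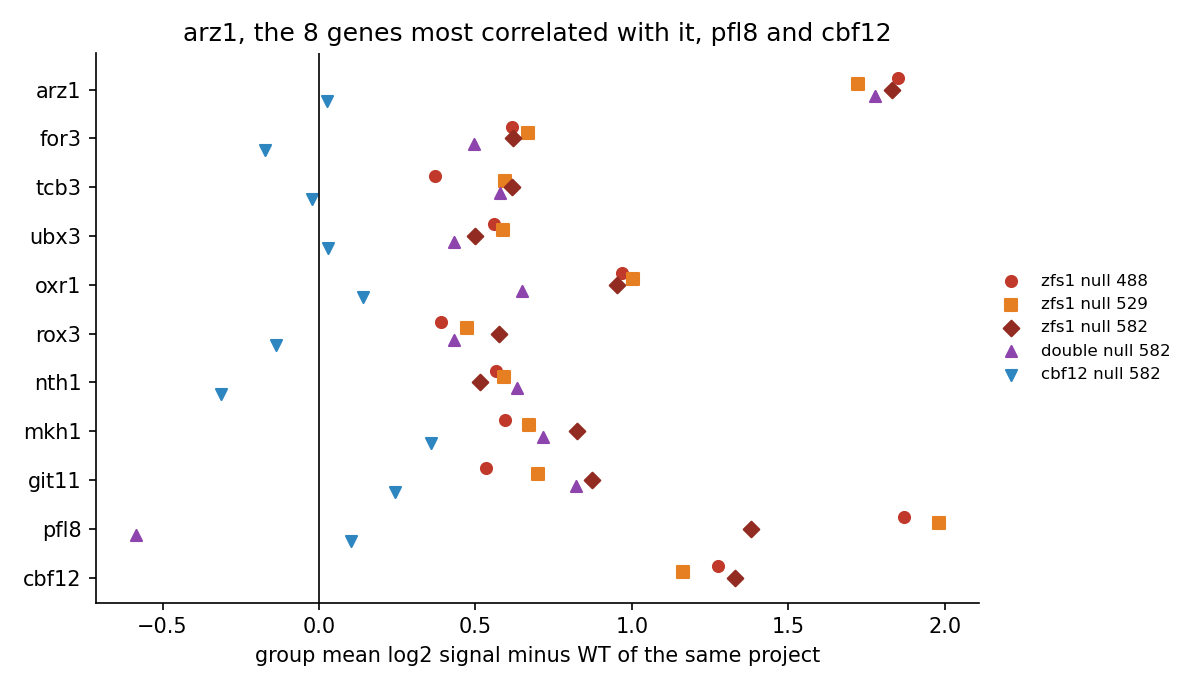
Mean log2 signal of each mutant group minus WT of the same project (horizontal axis) for arz1, the 8 genes most correlated with it, pfl8 and cbf12, with 1 marker per mutant group. cbf12 is not shown where it was deleted. The 4 groups lacking zfs1 lie between 1.72 and 1.85 for arz1, while for pfl8 the double null mutant lies below WT.

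The genes near arz1 on the chromosome that had a probe set showed no rise of its size. The protein-coding gene directly before arz1 was not among them. In the annotation of assembly ASM294v3 the adjacent gene tyr1, which encodes an enzyme of tyrosine synthesis, and the noncoding RNA SPNCRNA.1288 overlap the arz1 locus, and their RNA could not be separated from that of arz1 where they share sequence. The tyr1 signal was 1446, 1412 and 1544 in the zfs1 null mutant of project 488, against 1590, 1574 and 1546 in WT. Over the 3 projects tyr1 fell by 0.07 ± 0.03 SE on the log2 scale (limma adjusted p = 0.0244, 41.6 percent of the genes called in either direction).

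Of the other nearby genes with a probe set, the TFIID subunit gene taf13 had a log2 difference of 0.09 (adjusted p = 0.169) and the deubiquitinase gene ubp12 one of 0.05 (adjusted p = 0.323). Farther off, adn3, a transcription regulator of adhesion, rose by 0.20 on the log2 scale (adjusted p = 0.0326, and 0.0522 with medians set equal), while the glutathione transferase gene gst2 fell by 0.68 (adjusted p = 6.5e-08) and the alanine racemase gene alr1 fell by 0.38 (adjusted p = 7.2e-06). These p-values are limma's, over all genes of the combined comparison.

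Genes of mRNA decay, through which Zfs1-like proteins act, were called higher about as often as other genes over the 3 projects. Of 33 listed genes of mRNA decay 27 had a probe set, and over the 3 projects 6 rose on zfs1 deletion and 1, zfs1 itself, fell, against 23.4 percent of all genes called higher and 18.3 percent called lower. The 6 included dcp1 (log2 0.14 ± 0.03 SE, limma adjusted p = 0.00209) and dcp2 (0.14 ± 0.05, adjusted p = 0.0364), the decapping enzyme's subunits, the cytoplasmic exonuclease gene exo2 (0.13 ± 0.05, adjusted p = 0.0270) and the deadenylase gene caf1 (0.12 ± 0.04, adjusted p = 0.0138). The median log2 difference of the list was 0.07, against 0.02 for all genes. With the array medians set equal 3 genes of the list passed as higher, and dcp2 was not among them (adjusted p = 0.0528). In single comparisons 2 of the 27 passed as higher in project 488, 7 in project 529 and none in project 582, against 9.87, 25.7 and 4.14 percent of all genes. In the double null mutant against the cbf12 null mutant 9 passed as higher, against 18.8 percent of all genes, with a list median of 0.15 and an all-gene median of 0.06. In each of these comparisons zfs1 was the 1 gene of the list that fell.

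Armadillo-like repeat genes other than arz1 changed by small amounts. All 4 with a probe set, of 6 listed, rose over the 3 projects, where 23.4 percent of all genes were called higher, with log2 0.29 for cut15 and 0.07 for imp1, which both encode importin alpha, 0.13 for vac8, a vacuole protein, and 0.11 for ufd2, a ubiquitin chain elongation factor. Their limma adjusted p lay between 0.00421 for ufd2 and 0.0428 for imp1. With the array medians set equal only cut15 and ufd2 passed, and imp1 passed under neither other scaling. In project 529 alone 3 of the 4 passed as higher, with a list median of 0.19, against 25.7 percent of all genes. None of the 4 passed in project 488, in project 582 or in the double null mutant against the cbf12 null mutant.

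On cbf12 deletion with Zfs1 present, 5 of the 27 mRNA decay genes fell and none rose, and none of the 4 armadillo repeat genes passed, against 9.18 percent of all genes called higher and 18.9 percent called lower. The decay genes' fall depended on the scaling, since 1 fell and 1 rose under each other scaling. Without Zfs1 none of either list passed, against 3.24 percent called higher and 5.76 percent called lower, while 1 decay gene rose with medians set equal.

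Some mating type genes were lower in zfs1 null mutants. Of 9 measured genes specific to M or P cells 5 fell and 1 rose over the 3 projects, with a median of -0.30 on the log2 scale, against 18.3 percent of all genes called lower, and none was at background on any array. Under quantile normalization 4 fell and 1 rose, with a median of -0.10. In project 488 3 fell and none rose, in project 529 3 fell and 2 rose, in project 582 5 fell and none rose, and in the double null mutant against the cbf12 null mutant 4 fell and none rose. The shares of all genes called lower were 9.80, 16.5, 7.14 and 15.0 percent in these comparisons. The summed signal of 5 M cell genes ranged from 2755 to 2970 in the zfs1 null mutant and from 3298 to 3326 in WT of project 488, from 3862 to 4616 and from 4161 to 4299 in the same strains of project 529, and from 2949 to 3163 and from 4956 to 5244 in those of project 582. That of 4 P cell genes ranged from 1739 to 1885 in the zfs1 null mutant and from 1629 to 1763 in WT of project 488, from 1883 to 2091 and from 2024 to 2174 in project 529, and from 2065 to 2194 and from 2122 to 2238 in project 582. In project 582 the summed M cell signal ranged from 3042 to 3558 in the double null mutant, against 4461 to 4862 in the cbf12 null mutant. The P cell sums of the zfs1 null mutant and WT overlapped in all 3 projects. In project 529 the M cell sums overlapped as well. So did mfm2, an M factor gene (1576 to 1756 in the zfs1 null mutant, 1741 to 1949 in WT). The same held for map1 (74.7 to 109.7 in the mutant, 95.2 to 133.8 in WT), while mfm1 and mfm3 did not overlap. The share of all genes lacking overlap in the lower direction is not given here. There the M factor gene mfm1 ranged from 10.4 to 18.9 in the zfs1 null mutant, against 22.02 to 42.46 in WT, and mfm3, another M factor gene, ranged from 159 to 179 in the mutant, against 263 to 284 in WT. The part of mating type in the arz1 values was not tested.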

How the data were processed

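The deposited values are MAS5 intensities, linear and not log transformed, 1 for each of 10928 probe sets, per the submitters' processing notes. No version, scaling setting or detection call is stated there. Their mean after trimming 2 percent at each end was 500.1 to 500.2 on all 28 arrays, so that a shift common to most mRNAs would be scaled away. RNA was amplified before labelling, per the labels' protocols, which can compress differences. The number of arrays limits the precision.

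Of the probe sets, 2917 named 1 S. pombe gene in the array's gene table. Where a gene had several, the probe set brightest on average over the arrays stood for it, leaving 2899 genes. Symbols and neighbours came from the annotation of assembly ASM294v3, and no coordinates are given because no source used here names the array's build.

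Log2 signals were fitted with limma 3.58.1 in R 4.3.3, with an intensity trend in the prior variance, and p-values were two-sided and adjusted over all 2899 genes. The fit was tested on simulated data. Project was a term in the combined comparison of 22 arrays, and the 4 strains of project 582 were fitted together. No identical arrays were found. Replicate numbers of the labels were checked for pairing and did not pair the samples throughout. In project 529 replicates 2 to 5 of the zfs1 null mutant correlated best with the WT array of the same number (r from 0.09 to 0.14). In the other pairs of groups this held for some numbers or none. The samples were treated as unpaired. The gene, the gene lists and the rule for named genes were chosen with earlier results of these data known. The rule took the deleted genes, 3 measured neighbours on each side, the 8 highest and 4 lowest correlations with arz1, the 3 nearest genes, the genes ranked around arz1 by change, and up to 4 called members of each list. Alternatives were 2 other scalings, log2(signal + 16), no intensity trend, all probe sets tested, a replicate block, other sets of arrays, and each array left out. Some of the listed genes are not reported here.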

Additional observations from a re-analysis of the deposited data

Results flagged for a closer look

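The change of pfl8 on zfs1 deletion differed between strains without and with cbf12, by -2.07 on the log2 scale (SE 0.22, limma adjusted p = 1.0e-05 for the interaction). The change of mkh1 also differed, by -0.47 (SE 0.12, adjusted p = 0.0255), with a log2 change of 0.36 without Cbf12 and 0.82 with it. The change of gal10 on zfs1 deletion differed between projects (limma adjusted p = 0.0425), with -0.86, -1.26 and -1.22 in projects 488, 529 and 582. All were picked on the same arrays, mkh1 and gal10 for their correlation with arz1 and pfl8 for the size of its change on zfs1 deletion, which enters the difference tested. In all 15 genes were examined in this way. Over all genes 9.76 percent were called for the interaction and 19.7 percent for a difference between projects, so that such calls were common.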

How the results depend on the processing

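The arz1 rise on zfs1 deletion over the 3 projects had a log2 value between 1.75 and 1.81 under 29 alternatives. Under quantile normalization the rise was 1.55 in project 529, 2.02 in project 582, 1.88 without Cbf12 and 2.01 for the double null mutant over WT, and the moderated F for a difference in the rise between projects was 8.32, against 0.82 as deposited. With array medians set equal this F was 2.10, and with single arrays left out it ranged from 0.50 to 2.87. That scaling shifted the all-gene median by 0.11 for cbf12 null over WT, where arz1 was then at 0.13. With single arrays left out the rise in project 488 ranged from 1.74 to 1.97, and the F for WT levels between projects from 3.67 to 9.93.

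Neither cbf12 comparison of arz1 passed under any alternative, with adjusted p from 0.284 to 0.970 with Zfs1 and from 0.666 to 0.942 without it. The count of genes called was 481 without a term for project, against 1207. With only the 2 groups compared it was 164 for cbf12 deletion without Zfs1, against 261, and 599 for the double null mutant over WT, against 1018. Quantile normalization gave 602 for the last. With single arrays left out the counts ranged from 312 to 759 in project 488, against 570, from 183 to 298 for zfs1 deletion in project 582, against 327, from 490 to 828 for cbf12 deletion with Zfs1, against 815, and from 120 to 446 without it. The cause of these changes in the counts was not tested for any setting.

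A replicate block left the arz1 rise over the 3 projects at 1.79 (SE 0.06, against 0.05) and gave 1092 calls. The correlation of same-numbered arrays was from -0.30 to 0.31, and the block changed no call of arz1.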

Other observations

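Among the 14 arrays that carry zfs1, the arz1 signal was set against the zfs1 signal, a relation chosen after seeing the data and the only one of its kind computed. On the log2 scale Pearson's r was -0.22 (permutation p = 0.462) and Spearman's rho -0.42 (permutation p = 0.132). Without the 2 arrays farthest from the median zfs1 signal r was -0.12 (permutation p = 0.746) and rho -0.42 (permutation p = 0.178). In the 6 such arrays of project 582 r was 0.21 (exact permutation p = 0.758) and rho -0.14 (exact permutation p = 0.803). With group means removed r was 0.41 and rho 0.38 over the 14 arrays, of the opposite sign and without a test. The permutations exchanged values freely between groups and projects, so that their p-values take no account of either. No relation was thus resolved at this number of arrays. No correlation was computed over fewer than 6 arrays, so that projects 488 and 529, with 3 and 5 such arrays, have no value of their own.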
